A study of Mus musculus with 53 samples.

Results

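The effect of streptozotocin (STZ) on top of a high-fat diet was examined in sciatic nerves taken at 16 weeks of age, in 5 HFD-STZ samples and 7 HFD samples. These are the 12 samples of 53 in the series that carry both labels, high-fat diet and an age of 16 weeks. Genes were kept where their mean deposited log2 value over the 12 samples was 3.32 or more, the log2 of a linear value of 10, and where no value in any sample was above 22, and 18206 of 49568 genes passed. The rule used no difference between the groups.

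The study fed male C57BL/6J mice a high-fat diet to model prediabetes and added STZ to model type 2 diabetes (T2D). HFD mice ate the diet, with 60% of its energy as fat, from 5 weeks of age and received no STZ. HFD-STZ mice ate the same diet from the same age and were also injected intraperitoneally at 12 weeks with 75 mg/kg STZ and, 3 days later, with 50 mg/kg. Both groups therefore share the strain, the sex and the diet, and neither was returned to control chow. SD mice of 16 weeks, 5 samples on the control diet without STZ, are given side by side where a gene's level on a normal diet helps. No blood glucose, insulin or nerve function value was used here, so the glycaemia of each mouse is unknown, and the labels name no allele.

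STZ is a glucose analogue that enters pancreatic beta cells through the transporter GLUT2 and kills them. Insulin then falls, and with it the signal that makes fat cells take up fatty acids and glucose and hold triglyceride back from lipolysis. The sciatic nerve is a mixed nerve. It holds myelinating and non-myelinating Schwann cells, fibroblasts, perineurial and endothelial cells, macrophages and the axons themselves, whose cell bodies and most of whose mRNA lie elsewhere, and it is wrapped in an outer sheath, the epineurium, that carries fat and blood vessels. A bulk RNA sample of the whole nerve adds up all of these, so fewer cells of a type and less RNA per cell cannot be told apart in any of the values below.

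Markers of the labelled tissue were at high levels in all 12 nerves. The mean log2 value of 10 myelinating Schwann cell markers was 16.5 ± 0.129 in HFD-STZ samples (SD, n = 5) and 16.4 ± 0.133 in those of HFD mice (SD, n = 7). Between any pair of the 12 samples the correlation across genes lay between 0.979 and 0.994, pairs from different groups (0.979 to 0.993) being about as alike as pairs from the same group (0.979 to 0.994), and no samples of the series were identical. The reads behind a value are not given in the files, so no counting error can be stated, and the spread between mice is the only error used. The labels list the samples separately but do not name mice, so the p-values measure only the spread between these samples.

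STZ left no gene past the threshold in the nerve of HFD mice at this age. By limma and the Benjamini-Hochberg method, 0 of 18206 genes (0%) reached an adjusted p-value under 0.05, and the smallest was 0.246. Without adjustment 889 genes (4.88%) had a p-value under 0.05, about the share that the threshold itself allows. Of these, 362 (1.99%) were higher and 527 (2.89%) were lower in HFD-STZ samples. When each sample was centred on its own median, this split became 581 higher and 393 lower, so that the excess of lower genes depends on how the samples are scaled. The median difference over all genes was 0.0018 on the log2 scale, and 49.4% of genes were lower. For 51 genes (0.28%) the values of both groups did not overlap at all, 23 of them (0.126%) higher and 28 (0.154%) lower in HFD-STZ samples. Within the 5 runs of consecutive library numbers that hold 1 library of each group, a choice made after seeing the data, 0 genes passed (limma), with 1332 under 0.05 before adjustment. The library of HFD replicate 7 has a number next to that of another HFD library, where other runs hold an HFD-STZ library, and without it 0 genes passed (limma), with 971 under 0.05 before adjustment. All directions named below are therefore those of group means, beside the values of the single nerves, and none is a significant change.

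The smallest p-values belonged to genes that were lower in HFD-STZ nerves. Prkaa2 (chr4:105029874-105109890, minus strand, GRCm38) encodes a catalytic subunit of AMP-activated protein kinase, the enzyme that senses low cellular energy and switches on catabolism. Its log2 values were 7.73, 8.09, 8.10, 8.11 and 8.21 in the 5 HFD-STZ nerves and ran from 8.62 through a median of 8.68 to 9.0 in the 7 HFD nerves. Every HFD-STZ nerve lay below every HFD nerve. The difference was -0.69 ± 0.11 (SE), which is 1.62 times lower, with an adjusted p-value of 0.246 in limma's test, and the 2-sided exact permutation test gave p = 0.00126, the smallest that 792 splits of 5 and 7 samples allow. SD nerves spread from 7.23 to 9.53 and overlapped both groups.

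Krt79 (chr15:101929332-101940324, minus strand), a type II keratin, showed the same separation with a larger difference. Its values were 3.64, 3.78, 3.79, 4.59 and 4.92 in HFD-STZ nerves, against 5.17 to 6.59 (median 5.64) in HFD nerves. The difference of -1.63 ± 0.27 (SE; adjusted p = 0.268, limma) corresponds to 3.1 times, and SD nerves lay at 3.07 to 4.62, at the level of the HFD-STZ nerves. Rfx2 (chr17:56775897-56831013, minus strand), a transcription factor of ciliated cells, lay at 7.71, 7.73, 7.78, 7.86 and 7.91 in HFD-STZ and at 8.12 to 8.35 (median 8.25) in HFD nerves. That gap is small in size, -0.45 ± 0.08 (SE; adjusted p = 0.31, limma), but the values inside each group are close together.

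Trdn (chr10:33080554-33476709, plus strand), which encodes triadin, a protein of the sarcoplasmic reticulum of striated muscle, was at 4.84, 5.40, 6.02, 6.51 and 6.80 in HFD-STZ nerves. In HFD nerves it was at 7.05 to 9.24 (median 8.17), again without overlap. The difference was -2.19 ± 0.37 (SE; adjusted p = 0.268, limma). SD nerves held both the lowest and the highest level of this gene, from 4.38 to 12.02, the highest in the SD nerve that also had the most skeletal muscle marker RNA. With the mean of the skeletal muscle markers as a covariate its difference was -1.68, and the part of muscle content in it was not tested.

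Of the other genes among the 10 lowest p-values in this direction, Fas, the death receptor, differed by -0.49 ± 0.10 (SE), and 4 of 5 HFD-STZ nerves lay below all HFD nerves. Haao, an enzyme of tryptophan breakdown through kynurenine, differed by -0.90 ± 0.20 (SE) without overlap, and 4 of 5 HFD-STZ nerves lay below the 3.15 to 3.37 of SD nerves. The uncharacterised 3425401B19Rik (-1.29) and B430212C06Rik (-0.80) did not separate fully, with 4 of 5 HFD-STZ nerves below all HFD nerves in each. Jchain and Igkc, both of antibody-secreting cells, complete these 10 and are described with the immune genes. Among these the smallest adjusted p-value (limma) was 0.765.

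**Figure D1:**
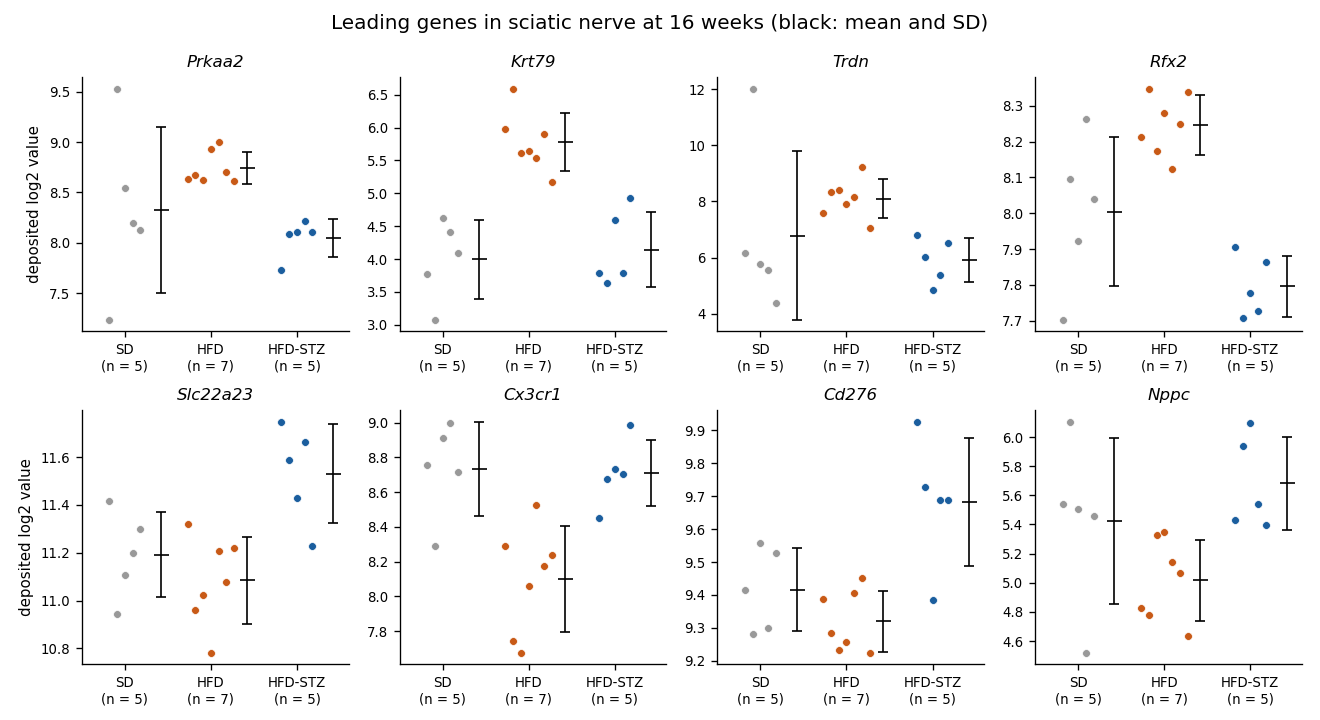
Deposited log2 values of 8 genes in each 16-week nerve (y axis, log2 scale) for SD, HFD and HFD-STZ mice (x axis), with the group mean and SD. In Prkaa2, Krt79, Trdn and Rfx2 all 5 HFD-STZ nerves lie below all 7 HFD nerves, and in Nppc all 5 lie above, while Slc22a23, Cx3cr1 and Cd276 overlap in 1 HFD-STZ nerve.

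Genes that were higher in HFD-STZ nerves differed less, and the smallest p-value among them was 0.000733, with an adjusted p-value of 0.987 (limma). Slc22a23 (chr13:34179158-34345182, minus strand), a member of the organic ion transporter family, was at 11.23, 11.43, 11.59, 11.66 and 11.75 in HFD-STZ nerves and at 10.78 to 11.32 (median 11.08) in HFD nerves. It differed by 0.45 ± 0.10 (SE), 1.36 times. Of the others among the 10 smallest p-values in this direction, Plch1, a phospholipase C, differed by 0.36, Ppip5k2, a kinase that makes inositol pyrophosphates, by 0.25, Adcy8, an adenylyl cyclase, by 0.31, and Clcn5, an endosomal chloride and proton exchanger, by 0.35.

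Cx3cr1, the receptor for fractalkine carried by resident macrophages and microglia, was at 8.45, 8.68, 8.70, 8.73 and 8.98 in HFD-STZ nerves and at 7.68 to 8.53 (median 8.17) in HFD nerves. SD nerves lay at 8.29 to 9.0, so that HFD nerves were the low group for this gene and the HFD-STZ nerves were at the SD level. Over the 10 macrophage markers the direction was not shared, with 4 higher and 6 lower and a median difference of -0.08. Cd276, an immune checkpoint molecule of the B7 family, was at 9.38, 9.69, 9.69, 9.73 and 9.93, against 9.22 to 9.45 in HFD nerves, a difference of 0.36 ± 0.09 (SE). The remaining genes among these 10 were 9130019O22Rik (0.30, no overlap between the groups), Galnt6, which starts O-linked glycans (0.39, no overlap), and C530005A16Rik (0.63).

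Nppc, which encodes C-type natriuretic peptide, had the largest difference among the genes that were higher without overlap. Its values were 5.40, 5.43, 5.54, 5.94 and 6.10 in HFD-STZ nerves and 4.64 to 5.35 (median 5.06) in HFD nerves, a difference of 0.66 ± 0.18 (SE; adjusted p = 0.987, limma; exact permutation p = 0.00253). The others that were largest by this rule were Gm37607 (0.48), Gm18782 (0.46), Adnp (0.46) and 4930515G01Rik (0.41). Gm18782 is annotated as a processed pseudogene and may take reads from its parent gene, and 4930515G01Rik lies antisense to another gene, whose reads cannot be separated in a non-stranded library. Among lower genes without overlap the largest were Trdn, Jchain, Krt79, Haao and Dnajc6 (-0.76), the last encoding auxilin, which uncoats clathrin vesicles.

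Genes of fat storage and fat uptake had lower means in HFD-STZ nerves almost throughout. Of 18 genes of triglyceride synthesis and storage that passed the filter, 16 were lower in HFD-STZ nerves, 8 of them with an unadjusted p-value under 0.05 (background for lower genes 2.89%), and the median difference was -0.45. Of 15 genes of lipolysis and fatty acid uptake, 15 were lower, 6 with an unadjusted p-value under 0.05, and the median was -0.44. Neither list held a gene past the adjusted threshold. Neither shares a gene with the 10 adipocyte markers described below, although fat cells also use many of these genes.

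Dgat2, the enzyme that adds the last fatty acid to make triglyceride, was at 10.61, 11.65, 11.76, 11.77 and 12.67 in HFD-STZ nerves and at 12.40 to 14.47 (median 12.67) in HFD nerves. Only the highest HFD-STZ nerve reached into the HFD range. The difference was -1.40 ± 0.41 (SE), 2.64 times lower, with an exact permutation p of 0.0126 and an adjusted p-value of 0.987 (limma), and SD nerves had a median of 10.91. Agpat2, the enzyme that adds the second fatty acid, differed by -0.59 ± 0.16 (SE). Plin2, a coat protein of lipid droplets found in most cell types, was at 11.38, 11.42, 11.55, 11.69 and 12.04, against 11.76 to 13.01 (median 12.08) in HFD nerves, and differed by -0.68 ± 0.21 (SE). In Agpat2 and Plin2 too, 4 of the 5 HFD-STZ nerves lay below all HFD nerves.

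Pparg, the receptor that drives fat-cell differentiation, differed by -1.05, Plin5, a lipid droplet protein of oxidative tissue, by -1.23, and Mogat2, which makes diacylglycerol from monoglyceride, by -1.11, all with unadjusted p-values under 0.05. The exceptions among the 18 were Gpam (0.08) and Plin3 (0.02).

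On the uptake side, Lpl, lipoprotein lipase, which frees fatty acids from circulating lipoproteins and is counted here as an adipocyte marker like Fabp4, differed by -1.49 ± 0.54 (SE), and Gpihbp1, which carries this enzyme onto the capillary wall, by -1.03 ± 0.31 (SE). Cd36, a fatty acid translocase, differed by -1.21 ± 0.46 (SE), and Fabp4, the fatty acid carrier of fat cells and capillaries, by -1.52 ± 0.51 (SE), from 14.7 in the median HFD nerve to 13.5 in the median HFD-STZ nerve. Mgll, monoglyceride lipase, which completes lipolysis, differed by -0.44 ± 0.16 (SE). In each of Lpl, Gpihbp1, Fabp4 and Mgll, 4 of 5 HFD-STZ nerves lay below all HFD nerves, and in Cd36 it was 3.

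Adipocyte markers moved with these genes. Of 10 markers, 9 were lower in HFD-STZ nerves, 5 with an unadjusted p-value under 0.05 (background for lower genes 2.89%), and the median difference was -1.16. Their mean log2 value ran from 9.45 to 13.07 in HFD-STZ and from 11.71 to 13.94 in HFD nerves, so the groups overlapped, and the sum of their linear values ran from 11558 to 127718 and from 66041 to 240273. No adipocyte marker was at 0 in any nerve. With the mean of the adipocyte markers as a covariate, Dgat2 differed by -0.63, Plin2 by -0.38, Agpat2 by -0.41 and Cd36 by -0.28. Fabp4, itself among the markers averaged so that part of its shrinkage is built in, differed by -0.54. With this covariate 16 of 18 storage genes were still lower with a median of -0.12, now 2 with an unadjusted p-value under 0.05. Without the HFD-STZ nerve with the lowest adipocyte marker level, replicate 2, the storage list kept 5 genes at that level and a median of -0.28, and the adipocyte markers 2 genes and -0.64. The part of fat content in the differences was not tested.

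**Figure D2:**
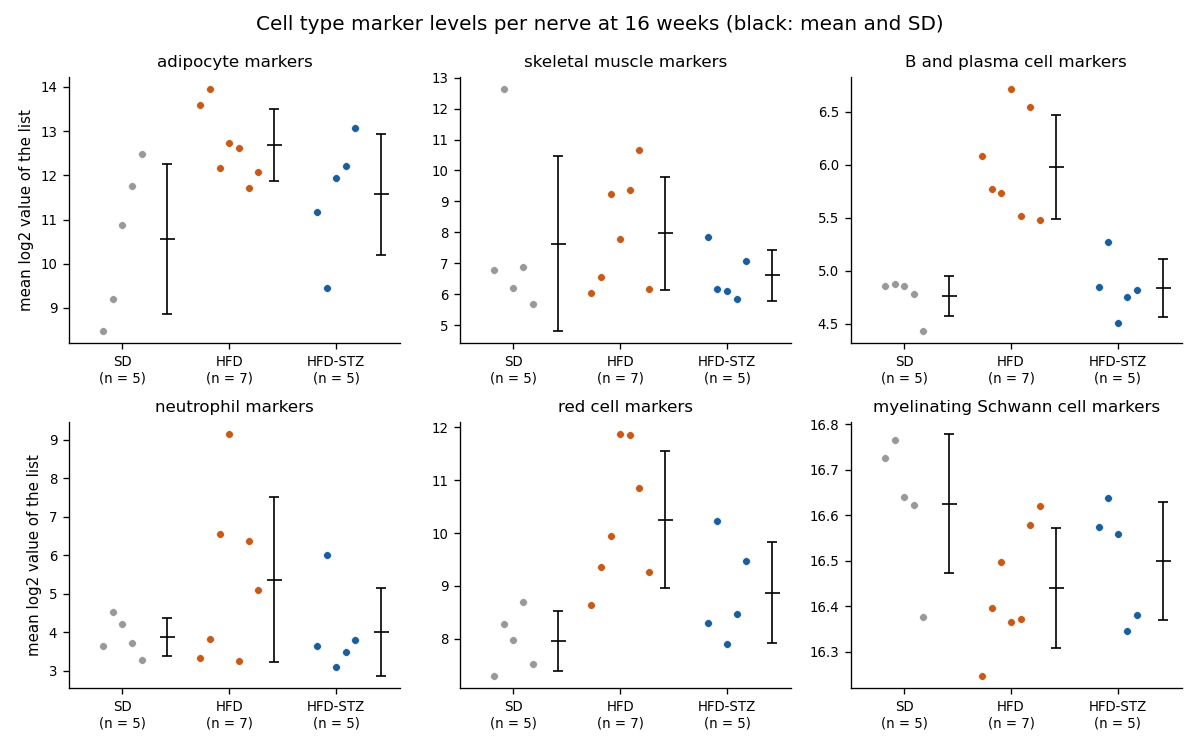
Mean log2 value of 6 lists of cell type markers (y axis, log2 scale) in each 16-week nerve of SD, HFD and HFD-STZ mice (x axis). The B and plasma cell markers of HFD-STZ nerves (4.51 to 5.27) lie below those of all HFD nerves (5.48 to 6.71), and the other lists overlap between these groups.

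Lep, leptin, the fat-cell hormone whose level follows the size of fat stores, was among the genes the study names for the diet. It was at 7.67, 10.26, 10.61, 10.88 and 12.32 in HFD-STZ nerves and at 9.69 to 14.50 (median 12.16) in HFD nerves. The ranges overlap widely, and the difference of -2.02 ± 0.82 (SE; 4.05 times, exact permutation p = 0.0682) became -0.43 with the adipocyte covariate. SD nerves were lower still, at 6.60 to 9.52. Adipoq, adiponectin, and Plin1, the lipid droplet coat of fat cells, differed by -1.21 and -1.11 and by 0.01 and -0.13 with that covariate. Lep, Adipoq and Plin1 are themselves among the markers averaged in that covariate, so part of their shrinkage is built in.

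Of 17 genes listed from those the study names, all past the filter, 16 were lower in HFD-STZ than in HFD nerves. Of these, 11 had an unadjusted p-value under 0.05 (background for lower genes 2.89%), and the median difference of the list was -1.40. The study chose most of these genes on the same samples, Ywhaz being its reference gene instead, so the direction of the list is no independent evidence. Its ranking of genes tied to lipids also holds Krt79, Trdn, Jchain, Igkc, Hp, Orm1, Mmp12, Ccl8 and Tfr2, which are not in this list. Adipoq, Plin1, Cidec, Plin4, Fabp4, Pparg, Plin5, Fabp3, Pnpla3 and Ighm are in that ranking too. The same limit holds for all of these. It also holds for the counts of lists with such members, among them the fat storage, fat uptake, adipocyte and B and plasma cell lists. In all 17 the HFD-STZ mean lay between the SD and the HFD mean, and in 13 it was closer to SD, a description in which the HFD samples are shared by both differences. Hp, haptoglobin, an acute phase protein also made by fat cells, was at 9.88, 11.45, 12.22, 12.27 and 13.43 in HFD-STZ nerves and at 12.22 to 15.94 (median 13.77) in HFD nerves, a difference of -2.17 ± 0.63 (SE).

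Ubd, a ubiquitin-like protein induced by inflammatory cytokines, was at 4.05, 4.11, 4.48, 4.90 and 6.13 in HFD-STZ nerves, while HFD nerves ran from 4.73 to 9.60 (median 7.73). The difference was -2.68 ± 0.77 (SE), 6.42 times, with an exact permutation p of 0.0202 and an adjusted p-value of 0.987 (limma). Saa3, an acute phase apolipoprotein, was at 2.95, 3.44, 3.81, 4.07 and 4.56, against 2.95 to 9.13 (median 6.98) in HFD nerves. For Ubd, Saa3, Itgad, an integrin of lipid-laden macrophages, and Tph2, a tryptophan hydroxylase of serotonin neurons, HFD replicates 5 and 6 had the lowest 2 values of the HFD group and lay among the HFD-STZ and SD nerves. These 2 nerves also had the highest skeletal muscle marker levels of the 12, at 9.38 and 10.65.

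Without these 2 nerves, a choice made after seeing the data, the differences were larger. Saa3 then differed by -4.08 and Tph2 by -4.02, and these 2 genes passed the adjusted threshold in limma's test, with an adjusted p-value of 0.0126 for Saa3. The nerves left out held the 2 lowest HFD values of both genes. A larger difference therefore followed from leaving them out, and the passing is no evidence of an effect. In the full comparison Itgad differed by -2.49 ± 0.89 (SE), Tph2 by -2.59 ± 1.06 (SE), Mmp12, the macrophage elastase, by -2.64 ± 0.89 (SE) and Slc5a7, the choline transporter of cholinergic neurons, by -2.0 ± 0.82 (SE). Their HFD values spread more widely than the difference between the group means, from 3.55 to 9.75 for Itgad and from 2.95 to 9.96 for Tph2. Ywhaz, which the study used as a reference gene, differed by 0.01 ± 0.07 (SE).

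**Figure D3:**
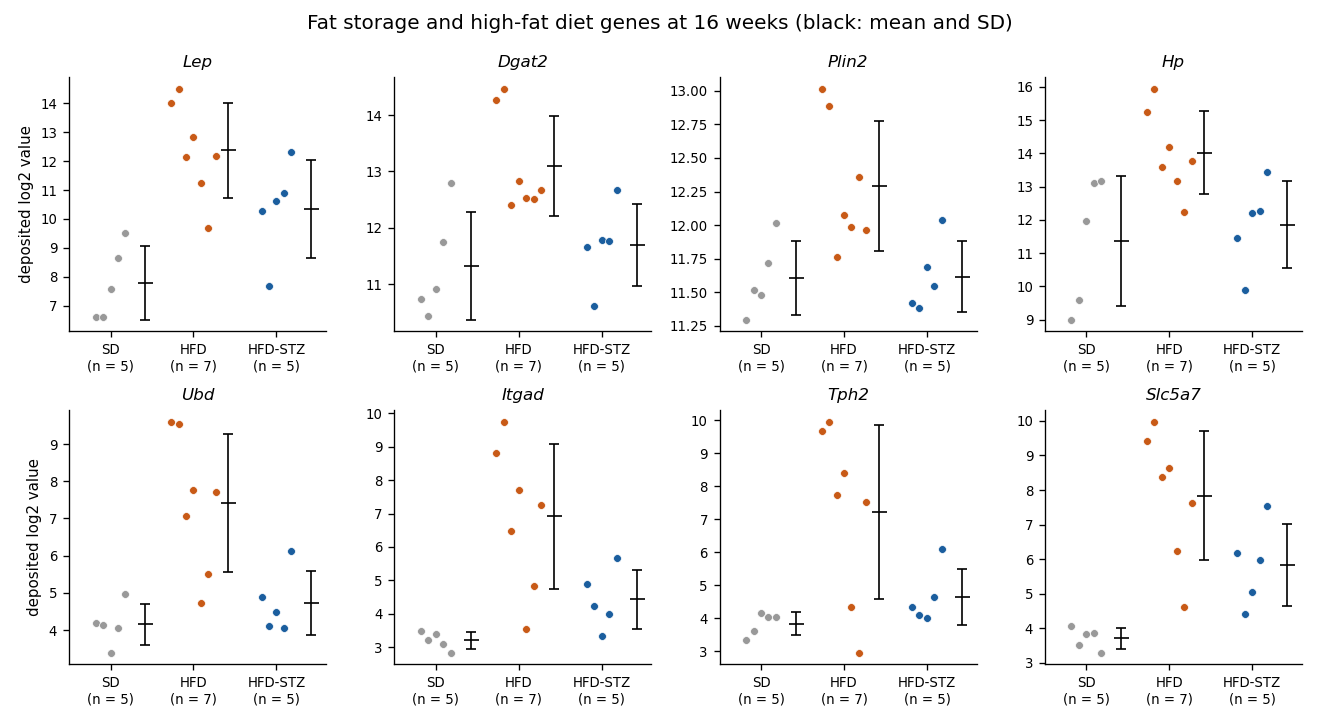
Deposited log2 values of 8 genes named by the study or of fat storage in each 16-week nerve (y axis, log2 scale) for SD, HFD and HFD-STZ mice (x axis), with the group mean and SD. HFD-STZ nerves lie between SD and HFD on average, and in Ubd, Itgad, Tph2 and Slc5a7 the HFD nerves themselves spread over several log2 units, from 2.95 to 9.96 for Tph2.

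The mean of the B and plasma cell markers did not overlap between HFD and HFD-STZ nerves, which held for no other of the 43 lists. All 7 B and plasma cell markers that passed the filter were lower in HFD-STZ nerves, and the median difference was -1.15. Of these, 4 had an unadjusted p-value under 0.05 (background for lower genes 2.89%). The mean of the markers was 4.51 to 5.27 in HFD-STZ and 5.48 to 6.71 in HFD nerves, without overlap, and 4.43 to 4.88 in SD nerves. The sum of their linear values was 1120 to 1888, 1628 to 7052 and 882 to 3010. None of the markers was at 0. Igkc (chr6:70726435-70726966, plus strand), the constant part of the kappa light chain, was at 3.79, 4.04, 4.10, 4.19 and 5.95 in HFD-STZ nerves and at 5.64 to 9.04 (median 6.54) in HFD nerves. It differed by -2.93 ± 0.64 (SE; adjusted p = 0.987, limma; exact permutation p = 0.00758), or 7.62 times, and 4 of the 5 nerves lay below all HFD nerves.

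Jchain (chr5:88519809-88527891, minus strand), which joins IgA and IgM into polymers, was at 3.42, 3.89, 3.93, 3.99 and 4.30 in HFD-STZ nerves and at 4.39 to 7.06 (median 5.82) in HFD nerves. The difference was -1.89 ± 0.40 (SE; adjusted p = 0.885, limma), and no values overlapped. With the adipocyte covariate Igkc differed by -3.30. SD nerves lay with the HFD-STZ nerves in both, at 4.02 to 5.08 for Igkc and 3.82 to 4.81 for Jchain.

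Means of blood cell genes were lower as well, with more overlap. Over all genes tested, 2.89% were lower with an unadjusted p-value under 0.05. All 7 neutrophil markers tested were lower (median -1.41), 1 with an unadjusted p-value under 0.05. This was S100a8, a calcium-binding protein of neutrophil granules, at 3.39, 3.57, 3.67, 3.71 and 7.38 in HFD-STZ and 3.72 to 10.57 (median 6.03) in HFD nerves, with 1 HFD-STZ nerve inside the HFD range. All 7 red cell genes tested were lower (median -1.58), 5 with an unadjusted p-value under 0.05. Hba-a1, alpha globin, which shares most of its sequence with Hba-a2 so that reads may be split between them, was at 8.65, 9.35, 9.59, 10.93 and 11.50, against 9.94 to 13.89 in HFD nerves, a difference of -1.60 ± 0.67 (SE). With the muscle covariate the red cell median was -1.0 with none under 0.05, and without HFD replicate 6 also none remained.

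Skeletal muscle markers were lower in HFD-STZ nerves in 9 of 9 genes tested, 2 with an unadjusted p-value under 0.05 (background for lower genes 2.89%). The median difference was -1.44, or -0.91 without HFD replicate 6. Acta1, skeletal alpha actin, was at 7.73, 8.18, 8.32, 10.50 and 10.53 in HFD-STZ nerves and at 8.95 to 13.21 (median 11.12) in HFD nerves. The mean of the markers ran from 5.86 to 7.84 in HFD-STZ, from 6.03 to 10.65 in HFD and from 5.68 to 12.62 in SD nerves, and their summed linear value from 1098 to 6190, from 1425 to 44726 and from 1157 to 350296. Muscle is not part of the nerve itself. Another marker of this list was under the filter on low values, and it was at or below 0 in several nerves of each group.

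**Figure D4:**
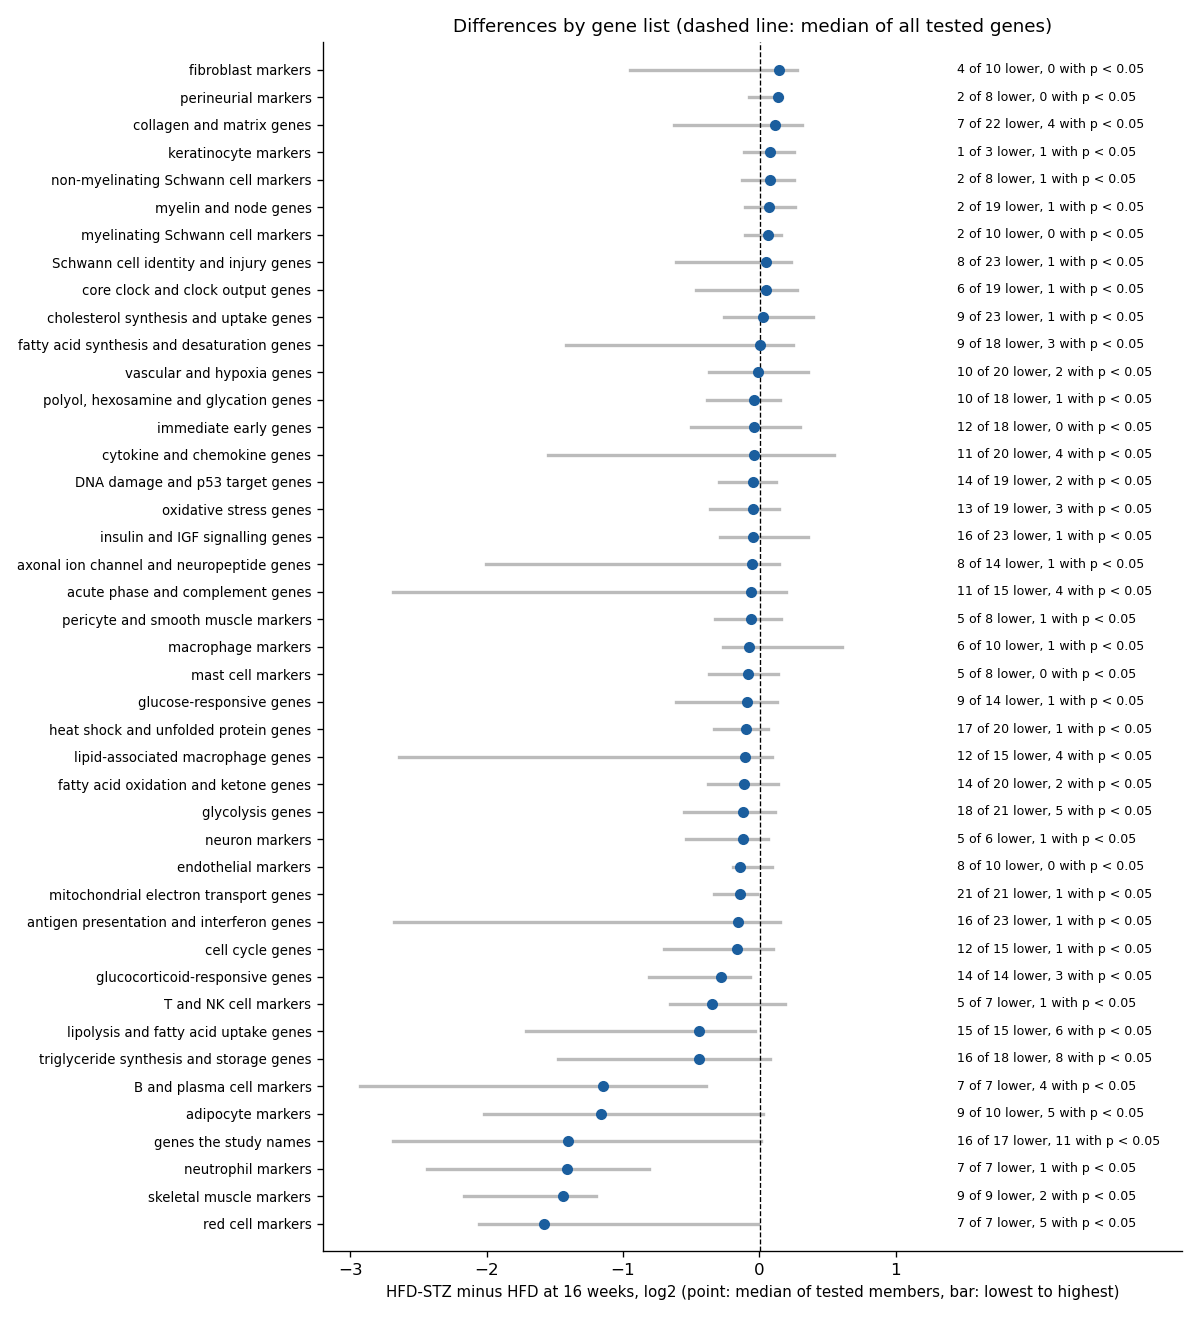
Median difference between HFD-STZ and HFD nerves at 16 weeks (x axis, log2) for 43 lists of cell type markers and pathway genes (y axis), with a line from the lowest to the highest member. Red cell (-1.58), skeletal muscle (-1.44), neutrophil (-1.41), adipocyte (-1.16) and B and plasma cell (-1.15) markers lie far to the left. So do the 17 genes listed from those the study names (-1.40), and most pathway lists lie near 0.

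Genes of energy metabolism were lower by small amounts. Of 21 glycolysis genes, 18 were lower, 5 with an unadjusted p-value under 0.05 (background for lower genes 2.89%), and the median was -0.12. Ldha, lactate dehydrogenase A, was at 13.40, 13.53, 13.55, 13.72 and 13.82 in HFD-STZ nerves and at 13.76 to 14.43 (median 13.99) in HFD nerves, a difference of -0.44 ± 0.11 (SE; exact permutation p = 0.00631; adjusted p = 0.987, limma). Tpi1 and Eno1, enzymes of the middle and the end of the pathway, differed by -0.19 each. Of 21 nuclear genes of the mitochondrial electron transport chain, 21 were lower, with a median of -0.14 and none beyond -0.33. Only 1 had an unadjusted p-value under 0.05, near the 4.88% of all genes. With the muscle covariate the medians were -0.03 and -0.08, blocked on the run of library numbers -0.07 and -0.03, and without HFD replicate 6, the nerve with the most muscle RNA of the 12, the glycolysis and the electron transport medians were -0.05 each.

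Genes that respond to glucocorticoids were lower in 14 of 14 cases, with a median of -0.28. Of these, 3 had an unadjusted p-value under 0.05 (background for lower genes 2.89%). Fkbp5, a chaperone that damps the glucocorticoid receptor and is induced by it, was at 9.96, 10.14, 10.56, 10.89 and 10.89 in HFD-STZ nerves and at 10.70 to 12.27 (median 11.41) in HFD nerves, and differed by -0.80 ± 0.25 (SE). Hif3a, a regulator of hypoxia responses, was at 6.95, 7.11, 7.59, 7.69 and 8.02, against 7.45 to 9.06 in HFD nerves, a difference of -0.81 ± 0.25 (SE). Both groups overlap in both genes. With the muscle covariate 10 of 14 were lower, with a median of -0.08, and blocked on the run of library numbers 10 of 14 were lower, none under 0.05, with a median of -0.14. Without HFD replicate 6 the median was -0.15. With the adipocyte covariate 14 of 14 were lower, 6 under 0.05, with a median of -0.38.

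Other lists of glucose, insulin and lipid metabolism had medians nearer to 0 than those of fat storage and uptake. As background for their counts, 4.88% of all genes tested were under 0.05 before adjustment, 2.89% lower and 1.99% higher. A single such gene in a list of 14 to 23 is near that share. Of 18 genes of the polyol, hexosamine and glycation pathways, 10 were lower, 1 with an unadjusted p-value under 0.05 (Akr1b10, an aldo-keto reductase, -0.28), and the median was -0.04. Of 14 glucose-responsive genes, 9 were lower and 1 was under 0.05, Hk2, the insulin-responsive hexokinase (-0.47). Of 23 genes of insulin and IGF signalling, 16 were lower and 1 was under 0.05 in the other direction, Irs1, the insulin receptor substrate, at 0.35 ± 0.14 (SE). Fatty acid synthesis and desaturation was split evenly, 9 higher and 9 lower, with 2 fat-cell genes under 0.05 among the lower, Pnpla3 (-1.42) and Thrsp (-1.13), and Insig1, a brake on sterol synthesis, among the higher (0.25). Cholesterol synthesis and uptake (14 of 23 higher, median 0.03), fatty acid oxidation (14 of 20 lower, median -0.11) and clock genes (13 of 19 higher, median 0.05) held 1, 2 and 1 genes under 0.05.

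Immune and stress lists other than the blood lineages showed a few members with large differences and a median near 0. Acute phase and complement genes were lower in 11 of 15 cases with a median of -0.06, which turned to 0.13 with 10 of 15 higher under the adipocyte covariate and ran from -0.00609 (without HFD-STZ replicate 1) to -0.151 (without HFD replicate 7) as each sample was left out. Unadjusted, 4 were under 0.05, all lower: Hp, Saa3, Orm1 (-1.66) and Lcn2 (-0.70). For this and the counts that follow, the share over all genes was 4.88%, with 2.89% lower and 1.99% higher. Lipid-associated macrophage genes were lower in 12 of 15 with a median of -0.11, and 4 of the lower genes had an unadjusted p-value under 0.05. Among 20 cytokines and chemokines 2 were lower and 2 higher under 0.05. Ccl8 differed by -1.55 ± 0.42 (SE) and Cxcl9 by -0.92, while Ccl12, a monocyte attractant, was at 6.72 to 6.92 in HFD-STZ nerves and at 6.19 to 6.68 in HFD nerves without overlap, a difference of 0.35 ± 0.12 (SE), with SD nerves at 6.86 to 7.47, above all HFD nerves. Of the oxidative stress genes, Gpx1, glutathione peroxidase, differed by -0.36 and Gclc, which begins glutathione synthesis, by 0.14. DNA damage and p53 targets, of interest because STZ alkylates DNA, had a median of -0.04 with 2 of 19 under 0.05, both lower.

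The structural genes of the nerve differed by small amounts. Of 19 myelin and node genes 17 were higher in HFD-STZ nerves, with a median of 0.07, and 1 had an unadjusted p-value under 0.05. With the adipocyte covariate 12 of 19 were lower and the median was -0.022, so the direction of this list changed with that setting. The 1 gene was Nrcam, a cell adhesion molecule of the node, at 0.15 ± 0.07 (SE), whereas Prx, periaxin of the myelin sheath, differed by 0.16 ± 0.09 (SE; exact permutation p = 0.0417). L1cam, which joins axons to non-myelinating Schwann cells, differed by 0.25. Collagen and matrix genes were higher in 15 of 22 cases, 4 of them under 0.05 (background for higher genes 1.99%), with a median of 0.11. Lamb1, a laminin chain of basement membranes, was at 14.70, 14.74, 14.81, 14.83 and 14.88 in HFD-STZ nerves and at 14.48 to 14.69 (median 14.62) in HFD nerves, without overlap, a difference of 0.18 ± 0.06 (SE; exact permutation p = 0.00126). Col14a1 differed by 0.16 and Col15a1 by 0.25. Blocked on the run of library numbers, the collagen median was -0.01, so the direction of this list changed with that setting.

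Promoter sequences are shown for single fat-cell, acute phase and glycolysis genes described above, because each holds one of the motifs searched. The 250 bases before each RefSeq start (GRCm38.p6) were searched on both strands for TTGCNNAA, the letters of a site of the C/EBP family, which drives fat-cell and acute phase genes, and for CACGTG, the E-box bound by factors such as ChREBP, MYC and HIF. An entry was found for 73 of the 90 genes examined one by one. TTGCNNAA stood in 9 of these 73 (12.3%) and in 10.8% of all 27025 genes, and CACGTG in 7 (9.59%) and in 6.86%. The shares are near those of all promoters, and a match is a description of letters, not a binding site. Each line gives 60 bases, 5′ to 3′ on the strand of the gene, with the matched letters in capitals.
Lep, chr6:29060140-29060199, plus strand: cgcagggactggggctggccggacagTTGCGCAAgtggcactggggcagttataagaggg
Plin1, chr7:79732930-79732989, minus strand: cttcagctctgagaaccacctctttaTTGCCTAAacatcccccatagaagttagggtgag
Saa3, chr7:46715742-46715801, minus strand: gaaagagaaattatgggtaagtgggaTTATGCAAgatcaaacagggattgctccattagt
Ldha, chr7:46845632-46845691, plus strand: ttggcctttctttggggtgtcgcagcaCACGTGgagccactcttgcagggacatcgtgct
Ldha, chr7:46845729-46845788, plus strand: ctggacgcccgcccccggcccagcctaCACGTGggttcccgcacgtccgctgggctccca
The match in Saa3 is the same motif read on the other strand, and Ldha holds 2 E-boxes within its window. Krt79 and Prkaa2 held neither set of letters in this window, which says nothing about the factors.

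At 24 weeks of age the same comparison could be made in other mice, 8 HFD-STZ and 7 HFD samples. There 0 of 18121 genes (0%) passed the adjusted threshold by limma, while 1014 (5.6%) were under 0.05 before adjustment. The change of the difference from 16 to 24 weeks passed for 0 of 18159 genes (0%), with 596 (3.28%) at an unadjusted p-value under 0.05, so no gene was shown to differ between the ages. Of the genes with an unadjusted p-value under 0.05 at 16 weeks that were also tested at 24, 513 (57.8%) had the same direction at 24 weeks, beside 49.1% of all 17949 genes. Across all these genes the correlation of the differences was 0.117, a description over genes that are not independent.

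Among the genes that led at 16 weeks, some were close to 0 in the older mice and others were not. Prkaa2 differed there by -0.01 ± 0.34 (SE), Trdn by -0.09 ± 0.73 (SE), Haao by 0.02 ± 0.26 (SE) and Cd276 by -0.02 ± 0.13 (SE). In contrast, B430212C06Rik was at -0.59 ± 0.22 (SE) at 24 weeks, with an unadjusted p-value under 0.05, and Jchain at -0.74 ± 0.84 (SE). Of the 90 genes examined, 63 were lower at 16 weeks and 53 of these were lower at 24 weeks, and 27 were higher, 17 of them at both ages. In 85 of 90 the difference was smaller in size at 24 weeks, in a set chosen by values at 16 weeks. The fat lists shrank to medians of -0.09 (storage) and -0.06 (lipolysis and uptake), with the adipocyte markers at -0.06, and electron transport was on the other side, at 0.11 with none of 21 lower.

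The B and plasma cell, neutrophil, red cell and glucocorticoid lists were also lower on average at 24 weeks, each with a median nearer to 0. Other immune lists were mixed. T and NK cell markers (-0.34 to -0.13) and lipid-associated macrophage genes (-0.11 to -0.07) also had medians that were lower at both ages and nearer to 0 at 24 weeks. Medians moved further from 0 for mast cell (-0.09 to -0.76), macrophage (-0.08 to -0.39), acute phase (-0.06 to -0.29) and cytokine genes (-0.04 to -0.15). Antigen presentation genes changed sign, from -0.16 to 0.15. The B and plasma cell markers had a median of -0.74 at 24 weeks with 7 of 7 lower, neutrophil markers -0.98 with 7 of 7, red cell markers -0.92 with 6 of 7 and glucocorticoid-responsive genes -0.27 with 13 of 14. Itgad differed by -1.93 ± 0.73 (SE), Tph2 by -1.93 ± 0.64 (SE), S100a8 by -1.82 ± 0.72 (SE) and Fkbp5 by -0.51 ± 0.22 (SE). These 4 genes had unadjusted p-values under 0.05 at both ages. Igkc, with the largest 16-week difference among the genes described, was at -0.90 ± 1.09 (SE), within its error.

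**Figure D5:**
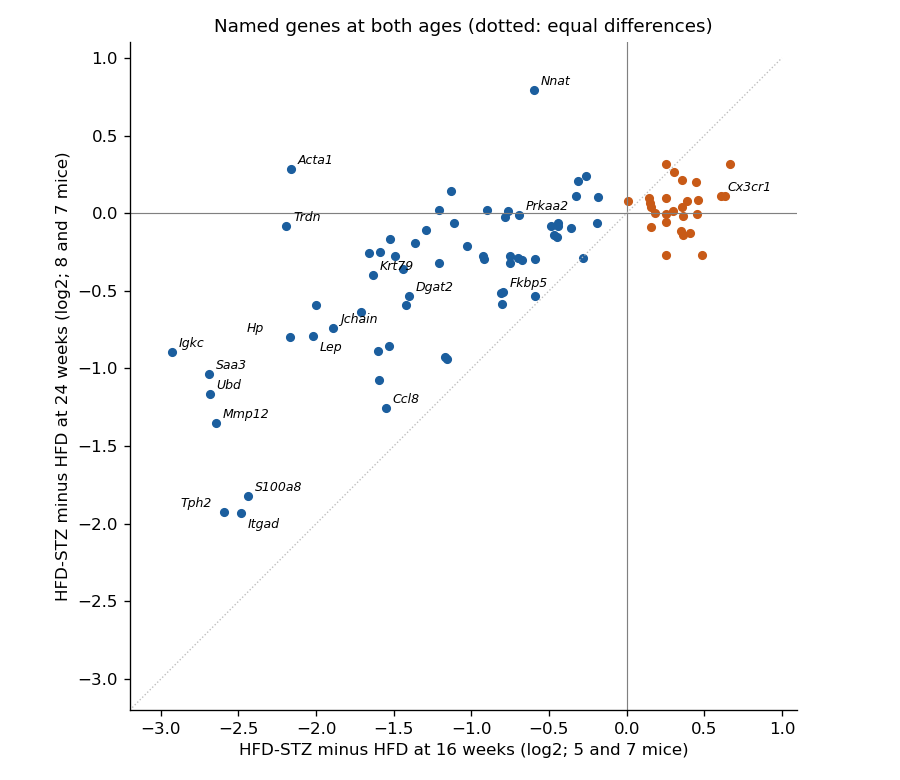
Difference between HFD-STZ and HFD nerves (log2) at 16 weeks (x axis) and at 24 weeks (y axis) for the 90 genes examined, 1 point each, from separate mice. Most points lie nearer to 0 at 24 than at 16 weeks, with Itgad, Tph2 and S100a8 among those that stay at -1.8 or beyond.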

How the data were processed

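RNA was measured by sequencing in sciatic nerve. Per the study's methods, the authors made non-stranded libraries from polyadenylated RNA, removed low-quality reads, aligned the rest to mm10 (GRCm38) with HISAT2, counted them per gene with featureCounts and used DESeq2, with versions not given in the sources used here. GEO's labels name another RNA extraction and library kit than the methods do. The authors deposited 1 log2 value for each gene in each sample, normalized between samples, and the transformation is not given in the sources used here. They are not read counts, so the depth behind a value is unknown and models of counts were not used. Fold changes are on this scale.

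Groups came from GEO's labels. Differences were group means of HFD-STZ minus HFD, tested with limma 3.58.1 in R 4.3.3 with the prior variance as a trend on mean expression, on the groups compared, followed by Benjamini-Hochberg adjustment over all genes tested and a threshold of 0.05. Single genes were also tested with a 2-sided exact permutation test over 792 splits. The scripts were tested on simulated data. Gene positions are from GENCODE M21, and promoter sequences from RefSeq (GRCm38.p6). Of the 43 lists, 16 are cell type markers and 27 are pathways. Members and lists were chosen with earlier results of these data known. The genes named are, in each direction, the 10 with the smallest p-values and the 5 with the largest differences without overlap. Added to these are the 3 with the smallest p-values of each list and the first 3 of each marker list. The 17 genes listed from those the study names complete the set. Genes named outside this rule were chosen after their values were seen, and results for some single genes are not reported here. Alternatives were other filters, other groups or library runs in the fit, marker means as covariates, other priors and scalings, and leaving out each sample.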

Additional observations from a re-analysis of the deposited data

Results flagged for a closer look

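Among 180 groups of values, those of 90 genes in HFD and in HFD-STZ nerves, 12 held 1 nerve far from the others of its group by Dixon's test, and chance alone flags about 1 group in 20. In the HFD group these were Dnajc6 in replicate 2 at 7.86, Cycs in replicate 6 at 11.9, Lcn2 in replicate 4 at 10.6 (all high) and Gclc in replicate 7 at 10.9 (low). In the HFD-STZ group Igkc and S100a8 were high in replicate 2, at 5.95 and 7.38. Jchain, also an antibody gene, was at 3.89 in that nerve, within the range of the other HFD-STZ nerves. Prkaa2 was low in replicate 1 at 7.73, the remaining HFD-STZ nerves also lying below all HFD nerves. Adnp was high in replicate 4 at 7.14, Pvalb in replicate 1 at 8.43 and Myh1 in replicate 5 at 6.83, the last 2 being muscle genes. Adcy8 and L1cam were low in replicate 5, at 11.5 and 12.1. The change of the difference from 16 to 24 weeks passed the adjusted threshold for 0 of 18159 genes in limma's test, with 596 at an unadjusted p-value under 0.05.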

How the results depend on the processing

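The number of genes at an adjusted p-value under 0.05 at 16 weeks was 0 under every alternative but 1. Without the 2 libraries with the highest skeletal muscle markers, HFD replicates 5 and 6, chosen after seeing the data, it was 2 (Saa3 and Tph2). These libraries held the lowest HFD values of both genes, so larger differences followed from the choice. The cause of their low values was not tested. Leaving out each of the 12 samples gave 0 to 0 genes after adjustment and 596 to 1136 before it, and without HFD-STZ replicate 2 the count was the lowest. The 889 genes at an unadjusted p-value under 0.05 became 1528 without a filter, which tests more genes, 421 with all 8 groups in 1 fit and 454 when the run was a covariate in that fit. At 24 weeks, all 8 groups in 1 fit gave 1 gene after and 1563 before adjustment. All 889 genes kept their direction wherever they were tested. Of 2422 values recomputed for 90 genes under 27 alternatives, 2415 kept their direction. With the adipocyte covariate Adipoq, itself among the markers averaged, turned to 0.0068, Nnat to 0.47, Sez6l to 0.34 and Ywhaz to -0.0204. The same covariate turned the myelin and node median to -0.022 and the acute phase median to 0.13. Ywhaz, near 0 throughout, ran from -0.0284 to 0.0415 as each sample was left out, at -0.00751 without HFD-STZ replicate 2, -0.0284 without HFD-STZ replicate 3 and -0.02 without HFD replicate 1. The muscle marker median was 0.13 with the muscle covariate, made from the same genes. The collagen median was -0.00605 with the run as a block and in the 5 runs with both groups.

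No paired analysis was possible because the labels give no replicate numbers. As a stand-in, the run of library numbers as a block gave 0 genes after adjustment and 1167 before it. Deviations of samples of the same run correlated at -0.515 to 0.184, above 0.1 in 3 of 5 runs. With no values from pairs of different runs beside them, these correlations cannot show whether runs pair the samples. No read depth is known, so it sets no limit that can be stated here.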

Other observations

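Of 888 genes under 0.05 before adjustment at 16 weeks and tested at 24 weeks, 37 were also under 0.05 at 24 weeks. That is no larger a share than the 999 of all 17949 genes tested at both ages. Of these 37, 33 had the same direction, 22 lower and 11 higher in HFD-STZ nerves. Over all genes with such a p-value at 24 weeks it was 573 of 999. No mouse was used at both ages. Mcemp1, a gene of mast cells and myeloid cells, differed by -0.89 at 16 and -1.12 at 24 weeks, and Tnip3, an inhibitor of NF-kappaB signalling, by -0.82 and -0.76. Tfr2, a transferrin receptor of liver and erythroid cells, differed by -1.51 and -1.03, F10, coagulation factor X, by -1.06 and -0.92, Tat, a tyrosine aminotransferase induced by glucocorticoids, by -0.55 and -0.83, and Angptl8, a regulator of lipoprotein lipase, by -0.72 and -0.73. Adam12, a metalloprotease, differed by -0.72 and -1.03. Among those that were higher, Hunk, a kinase of the AMPK-related family, differed by 0.34 and 0.38. None had an adjusted p-value under 0.05 at either age in limma's test, and these genes were named after their values were seen.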
